A study of Homo sapiens with 39 samples.

Results

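The transcriptome of an HCT116 line carrying isoform 7 of hepatocyte nuclear factor 4 alpha (HNF4A) was compared with that of the parental cells. The comparison used 6 of the 39 libraries of the series, namely the 3 labelled HNF4alpha7-GFP and the 3 labelled Empty Control, chosen by their labels. HCT116 is a human colorectal cancer cell line. The isoform 7 line was made with the Flp-In T-REx system and holds 1 inserted copy of human isoform 7, joined to GFP at its C-terminal end and switched on by doxycycline. The parental cells carried no HNF4A construct. Both groups received 2.5 µg/ml doxycycline for 48 h in medium without selection antibiotics. Before that, both were kept in 5 µg/ml blasticidin S, the parental cells also in 100 µg/ml zeocin and the isoform 7 line also in 100 µg/ml hygromycin B. The group is 1 stable line, and no group produced GFP alone, so isoform 7, GFP, the earlier antibiotics and the derivation of the line cannot be told apart. The labels do not say whether the 3 libraries of a group came from separate cultures, so the spread between them may be technical. The p-values measure that spread as pooled over all 39 libraries in 13 groups, not over the 6 compared libraries alone.

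HNF4A is a nuclear receptor that binds DNA as a dimer and activates genes of hepatocytes and of the epithelium of gut, kidney and pancreas. Its isoforms arise from alternative promoters and alternative splicing. Isoform 7 starts at the promoter named P2 and has another N-terminus than isoform 1, which starts at P1 and carries an N-terminal activation domain that the P2 forms lack. Isoforms 7, 8 and 9 share their N-terminus and differ at the C-terminus, where isoform 9 is shortened.

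HNF4A itself was measured first, as the sum of the 12 rows that the tables give to its isoforms, in TPM (read abundance per transcript length, scaled to the same sum in every library). The parental libraries had 31.95, 30.81 and 31.66 TPM, and the isoform 7 libraries had 691.58, 752.12 and 753.99 TPM. The groups did not overlap, at 31.5 ± 0.59 TPM (SD, n = 3) against 732.6 ± 35.5 TPM (SD, n = 3), which checks the labels. The row of isoform 7 held 99.7%, 99.6% and 99.6% of the sum in the 3 isoform 7 libraries. In the parental libraries most of the sum, 27.8, 27.3 and 28.7 TPM, stood in the row of isoform 12, and that row was below 0.0001 TPM in each isoform 7 library (2.46e-05, 1.31e-05 and 5.36e-05). The 12 rows have nearly the same sequence, so how reads were divided between them is uncertain, and the level of the cells' own HNF4A in the isoform 7 line cannot be read from these rows. None of the 12 rows entered the tests.

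The 6 libraries had Pearson correlations across genes of 0.9902 to 0.9932 within a group and of 0.9772 to 0.9796 between the groups. In these 6 libraries, 27892 to 30553 rows were above 0 TPM per library. Markers of an epithelial line were present in every library: the 10 summed to 3350 to 3497 TPM in the parental libraries and to 4929 to 5094 TPM in the isoform 7 libraries. The 8 fibroblast markers summed to 13.6 to 15.6 and to 9.47 to 13.4 TPM, with LUM listed at 0 in all 6 libraries. The 9 blood and endothelial markers summed to 6.15 to 7.44 and to 19.9 to 23.6 TPM. Most of that rise was of CD68, a lysosomal glycoprotein abundant in macrophages, at 4.01, 4.44 and 3.10 TPM against 15.4, 19.1 and 19.3 TPM. PTPRC, which marks all white blood cells, stayed at or below 0.129 TPM and CD3E was listed at 0 in all 6 libraries.

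Differences are given as log2(TPM + 1), isoform 7 line minus parental cells, with a standard error (SE) from a limma fit and a Benjamini-Hochberg adjusted p over the 15002 rows with a mean of at least 1 TPM. The pseudocount of 1 TPM makes the difference of a low gene look smaller than its ratio. A row was called at an adjusted p under 0.05 and an absolute difference of at least 1. By this rule 311 rows were called (2.07% of those tested), 167 higher (1.11%) and 144 lower (0.96%) in the isoform 7 line. Among the higher rows, 129 were protein-coding genes and 18 were long noncoding RNAs, and among the lower rows these numbers were 127 and 8. On this scale the higher rows went further: 37 of them differed by at least 2 and 12 by at least 3, against 11 and 2 of the lower rows. A fall in log2(TPM + 1) cannot exceed the parental level, while a rise has no such bound. Of the 144 lower rows, 44 had a mean under 1 TPM in the isoform 7 line. The 3 libraries of the isoform 7 line lay entirely above or below the 3 parental libraries for 7333 rows, 48.9% of those tested, so that such a separation alone marks no gene out.

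With no minimum difference, an adjusted p under 0.05 was reached by 2010 rows that were higher (13.4%) and 3931 that were lower (26.2%). This split depends on the scale. The median difference of all tested rows was -0.06, and after median-of-ratios scaling between libraries, which sets it to 0, the numbers were 3237 higher and 2998 lower, so the share that was higher went from 33.8% to 51.9%. The calls shifted less, from 167 and 144 to 184 and 123. With a pseudocount of 0.1 TPM, which gives low genes more weight, 226 rows were called higher and 340 lower. In the authors' deposited table for this line, 554 genes pass the same thresholds on the authors' own log2 fold change, 275 higher and 279 lower. In that authors' deposited table, 157 of the 167 and 135 of the 144 rows called here have an adjusted p under 0.05 and the same sign, and 7 and 4 have no adjusted p.

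**Figure D1:**
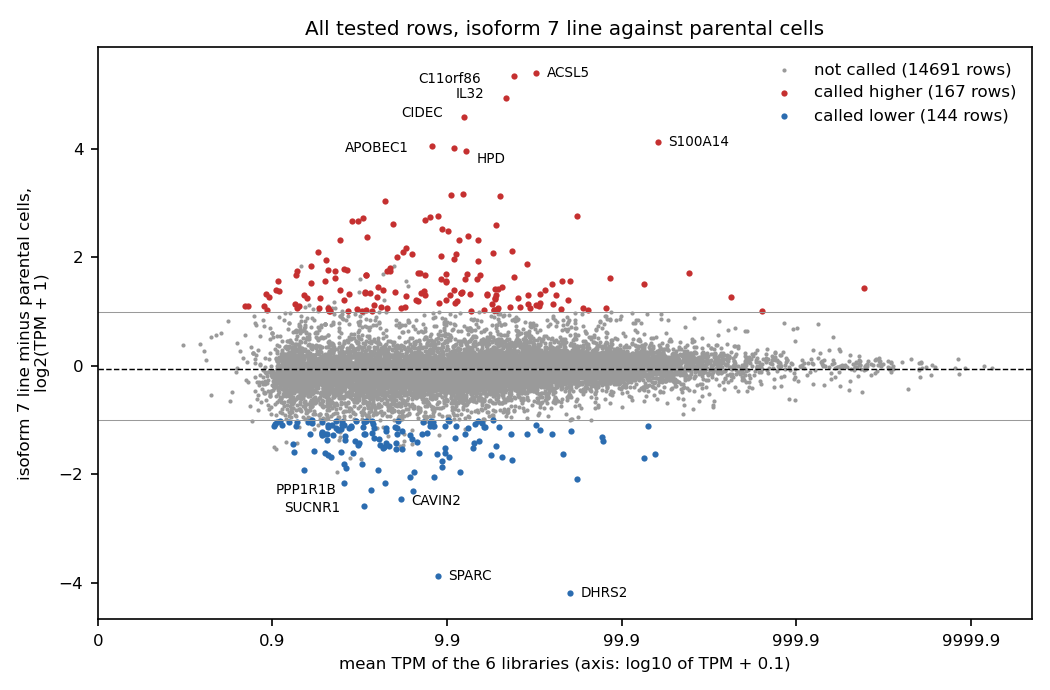
Each point is 1 of the 15002 tested rows, placed by its mean TPM over the 6 libraries (horizontal axis, logarithmic in TPM + 0.1) and by the difference between the isoform 7 line and the parental cells in log2(TPM + 1) (vertical axis). The 167 rows called higher reach 5.39 and the 144 called lower reach -4.18; the dashed line is the median of all rows at -0.06 and the grey lines stand at 1 and -1.

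In log2(TPM + 1), the largest rise was that of ACSL5. With a pseudocount of 0.1 TPM, C11orf86 (7.27), CIDEC (7.18) and APOBEC1 (6.97) rose further than ACSL5 (6.63). ACSL5 (chr10:112374018-112428380, GRCh38) encodes an acyl-CoA synthetase that activates long-chain fatty acids and is abundant in enterocytes. It had 0.526, 0.64 and 0.485 TPM in parental cells against 65.2, 60.6 and 66.2 TPM in the isoform 7 line. Its levels went from near the lower end of the measured range to a well expressed gene, a difference of 5.39 (SE 0.11, limma adjusted p = 1.37e-25). In a fit of only the 6 compared libraries, the limma adjusted p of ACSL5 was 9.03e-08. The adjusted p-values given for single genes come from the fit of all 39 libraries. CIDEC (chr3:9866711-9880254), a lipid droplet protein that promotes droplet fusion in fat cells, had 0.0344, 0.125 and 0.0643 TPM in parental cells against 23.0, 27.4 and 23.7 TPM in the isoform 7 line, with no overlap (difference 4.58, SE 0.13, limma adjusted p = 3.44e-22). AWAT1, an acyltransferase that makes wax esters, was listed at 0 in 2 of the parental libraries and at 0.0567 TPM in the third, and reached 6.17, 5.00 and 5.31 TPM (difference 2.67). PLIN2, the droplet coat protein of most cell types, went the other way. It had 31.7, 33.1 and 30.7 TPM in the parental libraries against 10.5, 9.85 and 7.68 TPM, and fell by 1.68 (SE 0.06, limma adjusted p = 1.01e-18). Of the 26 tested genes of a list on fatty acid activation and lipid droplets, ACSL5 and CIDEC were called higher and PLIN2 lower, and after scaling 4 were called higher and 1 lower, with AGPAT2 and SLC27A4 added at 1.06 and 1.01. The list's median difference was 0.00 beside -0.06 for all tested rows, of which 1.11% were called higher and 0.96% lower. FABP5 and PLIN3, the most abundant other members, differed by -0.24 and 0.19.

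No gene of fatty acid oxidation or of sterol synthesis reached the minimum difference. None of 30 tested genes of mitochondrial and peroxisomal fatty acid oxidation was called (median 0.08), and ETFB, a subunit of the electron carrier that serves this pathway, differed by 0.46 (SE 0.04). At an adjusted p under 0.05 with no minimum difference, 9 of these 30 were higher and 5 lower, beside 13.4% and 26.2% of all rows, and 15 and 3 after scaling. None of 31 genes of cholesterol and fatty acid synthesis was called (median 0.01). With no minimum difference, 14 of them were higher and 4 lower, and 15 and 2 after scaling. SCD, the main fatty acid desaturase, had 482, 541 and 511 TPM in parental cells against 495, 535 and 506 TPM in the isoform 7 line, which overlapped.

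Several further genes went from near 0 TPM to a clearly measured level. C11orf86 (chr11:66975277-66977004), for which no function is given here, had 0.3, 0.139 and 0.213 TPM in parental cells against 54.2, 46.5 and 43.7 TPM in the isoform 7 line (difference 5.33, SE 0.14, limma adjusted p = 1.34e-22). IL32 (chr16:3065297-3082192), a secreted inflammatory cytokine, had 0.446, 0.524 and 0.304 TPM against 45.6, 42.1 and 40.3 TPM (difference 4.94, SE 0.15, limma adjusted p = 4.64e-21). APOBEC1 (chr12:7649400-7665903), the cytidine deaminase that edits apolipoprotein B mRNA in the small intestine, was listed at 0, 0.121 and 0 TPM and rose to 17.8, 16.3 and 14.6 TPM (difference 4.05, SE 0.19, limma adjusted p = 1.02e-16). All 3 genes were silent or nearly so in the parental libraries, and in none did the groups overlap. APOB, whose mRNA APOBEC1 edits, was listed at 0 in all 3 isoform 7 libraries.

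HPD (chr12:121839527-121863596), an enzyme of tyrosine breakdown, had 0.767, 0.612 and 0.605 TPM in parental cells against 25.8, 23.4 and 25.4 TPM in the isoform 7 line (difference 3.96, SE 0.11). S100A14 (chr1:153614255-153616986), a calcium-binding protein of epithelia, was the highest in level of the 15: it had 15.2, 17.3 and 17.2 TPM against 298.1, 325.3 and 288.9 TPM, a ratio of mean TPM of 18.3 (difference 4.12, SE 0.11). VIPR1, a receptor for vasoactive intestinal peptide, had 3.46, 3.01 and 3.52 TPM against 42.1, 31.4 and 37.1 TPM (difference 3.12). Its antisense transcript VIPR1-AS1 rose too, by 2.69, and since it is not given whether strand was used in the counting, reads of the pair cannot be told apart. MYO15B, an unconventional myosin, differed by 3.16 and FAM25A by 2.76. FAM25A belongs to a family of near-identical copies, so its values are uncertain.

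**Figure D2:**
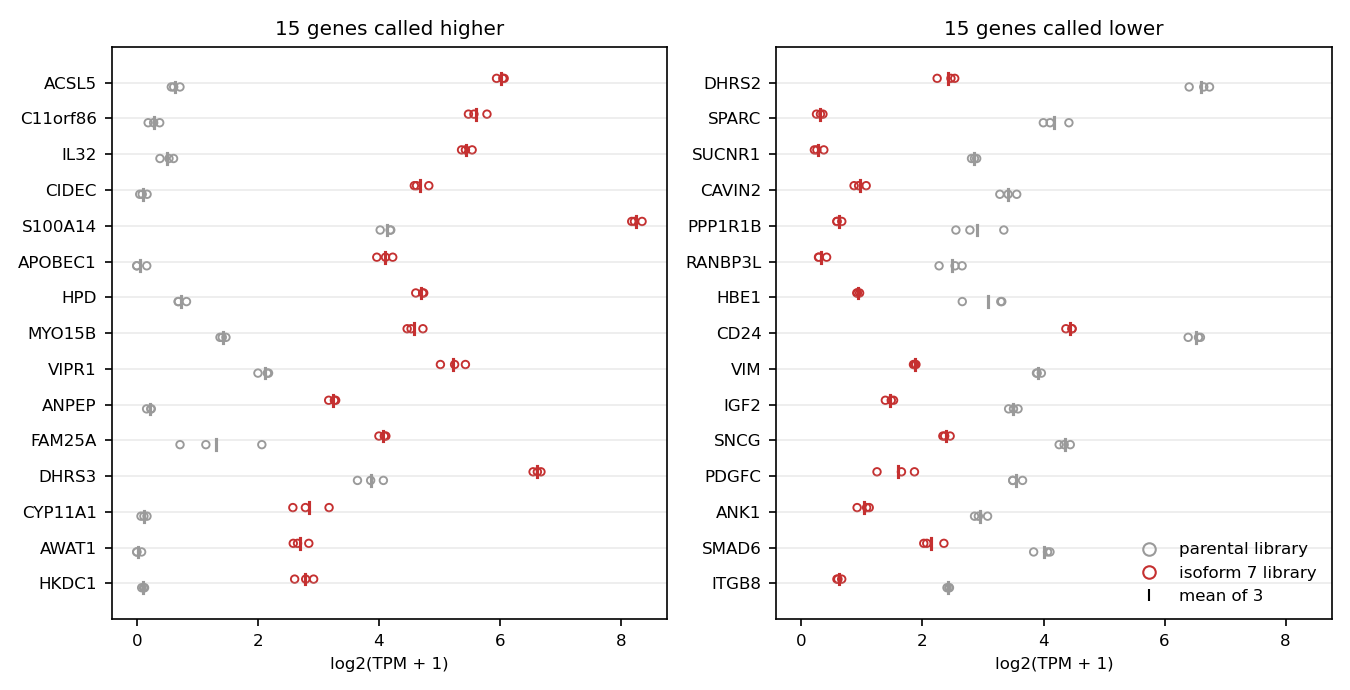
Levels in log2(TPM + 1) (horizontal axis) of the 15 genes with the largest rise (left) and the 15 with the largest fall (right) in each of the 3 parental (grey) and 3 isoform 7 (red) libraries, with bars at the mean. In each of the 30 genes the groups do not overlap, which was a condition for being shown; ACSL5 and DHRS2 lead the panels with differences of 5.39 and -4.18.

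The promoters of the called genes were read for letters that HNF4A is known to bind. RefSeq start sites (GRCh38.p14) were available for 117 of the genes called higher and 95 of those called lower, and the 250 bases before each start site were searched on both strands for CAAAGTCCA, CAAAGTTCA and CAAAGGTCA. At least 1 of them stood before a start site in 11 of the 117 genes called higher (9.4%), in 2 of the 95 called lower (2.11%), in 99 of 10412 tested genes (0.951%) and in 308 of all 27305 genes of the table (1.13%). Counted per start site, the shares were 6.15% of 179, 1.23% of 162, 0.705% of 15029 and 0.911% of 35116. No test was made of these shares, and a match of letters shows no binding. The stretches below are those of 7 genes that rose and of the 2 that fell, each with 16 bases either side of the match where these lie before the start site, in the direction of the gene, with the matching letters in capitals.
APOBEC1 (chr12:7665912-7665952, minus strand): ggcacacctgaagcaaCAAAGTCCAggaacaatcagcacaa
VTN (chr17:28370381-28370421, minus strand): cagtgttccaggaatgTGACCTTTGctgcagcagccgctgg
SELENOP (chr5:42811942-42811982, minus strand): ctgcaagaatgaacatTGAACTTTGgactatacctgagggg
CLRN3 (chr10:127892966-127893006, minus strand): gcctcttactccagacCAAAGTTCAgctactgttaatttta
MISP (chr19:750984-751024, plus strand): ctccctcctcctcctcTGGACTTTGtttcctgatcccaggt
SDCBP2 (chr20:1313674-1313710, minus strand): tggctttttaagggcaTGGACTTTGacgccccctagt
SLCO2B1 (chr11:75159747-75159787, plus strand): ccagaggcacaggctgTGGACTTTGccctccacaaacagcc
CYP26A1 (chr10:93073787-93073827, plus strand, lower): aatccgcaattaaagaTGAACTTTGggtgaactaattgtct
STRA6 (chr15:74212260-74212297, minus strand, lower): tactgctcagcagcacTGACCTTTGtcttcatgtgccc

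In APOBEC1 the match lies 28 to 20 bases before the start site, and in SDCBP2 21 to 13 bases before it. VTN, which encodes the plasma adhesion protein vitronectin, had 0.0378, 0.0275 and 0.021 TPM in parental cells against 3.51, 2.81 and 3.96 TPM in the isoform 7 line (difference 2.10). SELENOP, a selenium carrier secreted by the liver, had 5.29, 5.48 and 6.17 TPM against 26.2, 22.2 and 24.8 TPM (difference 1.93). SLCO2B1, an organic anion importer, had 0.0537, 0.0167 and 0.0341 TPM against 2.14, 1.42 and 1.25 TPM (difference 1.32). In each of these the isoform 7 libraries lay above all parental libraries. The 4 other genes that rose and held a match are ENO3, GPR35, PPP1R14D and CYTOR, a long noncoding RNA, with differences of 1.30, 1.01, 1.11 and 1.51. GPR35 lost the call without isoform 7 replicate 3 (0.90) or parental replicate 2 (0.97). SELENOP, SLCO2B1, CLRN3, GPR35, PPP1R14D, CYTOR and STRA6 are named here because of the match, after their values were seen.

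Of 21 classical HNF4A targets of liver and gut, 5 had enough RNA to be tested and 2 of these were called, both higher. Among all tested rows 1.11% were called higher and 0.96% lower. Both called genes were below 1 TPM in all parental libraries, so the direction of their call was fixed by the scale. VIL1, the actin-bundling protein of microvilli, had 0.482, 0.683 and 0.497 TPM in parental cells against 4.20, 3.28 and 3.94 TPM in the isoform 7 line (difference 1.63, SE 0.17, limma adjusted p = 2.56e-09). LGALS4, a galectin of the gut lining, had 0.18, 0.0739 and 0.158 TPM against 1.39, 1.51 and 1.42 TPM (difference 1.10, SE 0.17). The 3 tested members that were not called were F10 (-0.36), APOA1 (0.10) and MTTP (0.01). TTR and FABP1, among the most abundant products of liver or enterocytes, were listed at 0 in all 6 libraries.

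Brush border genes had the highest median of the gene lists, leaving aside the 2 tested blood and endothelial markers. The brush border is the array of microvilli on the absorbing face of enterocytes. Of 35 listed genes 17 had enough RNA to be tested. Of these 4 were called, all higher, beside 1.11% of all tested rows. ANPEP and SDCBP2, among those called, were below 1 TPM in all parental libraries, so they could not have been called lower. The count and the median of this list are therefore partly set by the filter. The median difference of those tested was 0.64 beside -0.06 for all tested rows. With no minimum difference, 9 were higher and 2 lower at an adjusted p under 0.05, beside 13.4% and 26.2% of all rows. Among the untested, SI, ALPI and MYO7B stayed at or below 0.0587 TPM in all 6 libraries. TREH, also untested, had 0 to 0.122 TPM in parental cells and 0.756 to 0.864 TPM in the isoform 7 line. ANPEP (chr15:89784889-89815401), a peptidase of the brush border membrane, had 0.18, 0.119 and 0.173 TPM in parental cells against 8.76, 8.01 and 8.62 TPM in the isoform 7 line (difference 3.03, SE 0.10, limma adjusted p = 4.21e-20). MISP, an actin-bundling protein, had 10.4, 10.1 and 11.1 TPM against 27.9, 26.5 and 27.8 TPM (difference 1.30). SDCBP2, a PDZ-domain scaffold protein, differed by 1.30 as well, from below 0.6 TPM to 2.76, 2.34 and 2.18 TPM. EZR, the linker of microvillar membrane and actin, had 394, 402 and 393 TPM against 592, 639 and 619.6 TPM, a difference of 0.64 (SE 0.04), which passed the adjusted p but not the minimum.

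Epithelial keratins and junction genes were shifted less. Of 10 epithelial markers, KRT19 alone was called, at 429, 425 and 417 TPM against 838, 879 and 837 TPM (difference 1.00, SE 0.04). KRT19 sat on the minimum and was at 0.98 without isoform 7 replicate 2 and at 0.99 without parental replicate 3. KRT8 and KRT18 differed by 0.53 and 0.45, and the median of the 10 was 0.44. Of 25 genes of adhesion, tight junctions and mucins LGALS4 alone was called, higher, with a list median of 0.11. Among all tested rows 1.11% were called higher. CLDN7 differed by 0.61 and EPCAM by 0.21.

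Enzymes and pumps for drugs, steroids and retinoids contained strong changes in both directions. Of 25 tested, 5 were called higher and 3 lower, beside 1.11% and 0.96% of all tested rows. The median was 0.11 beside -0.06 for all tested rows. ABCG2, an efflux pump, had 2.10, 2.19 and 1.85 TPM in parental cells against 16.7, 16.8 and 16.2 TPM in the isoform 7 line (difference 2.53, SE 0.11, limma adjusted p = 1.87e-17). CYP1A1, which oxidises aromatic hydrocarbons, had 2.34, 2.69 and 2.01 TPM against 17.5, 20.5 and 15.2 TPM (difference 2.48). DHRS3, which reduces retinal to retinol, had 11.5, 13.6 and 15.9 TPM against 101.5, 97.4 and 92.7 TPM (difference 2.75). In these 3 genes the isoform 7 libraries lay far above the parental range. SULT2B1, a cholesterol sulfotransferase, and CYP2S1 rose by 1.70 and 1.06.

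DHRS2 (chr14:23630115-23645639), a short-chain dehydrogenase, showed the deepest fall of all tested rows in log2(TPM + 1). It had 83.9, 99.3 and 106.1 TPM in parental cells against 4.79, 3.73 and 4.54 TPM in the isoform 7 line (difference -4.18, SE 0.41, limma adjusted p = 1.07e-09). This rank depends on the scale: with a pseudocount of 0.1 TPM, SPARC fell further than DHRS2 (-5.68 against -4.44). CYP26A1, which breaks down retinoic acid, had 2.07, 1.60 and 2.66 TPM against 0.416, 0.394 and 0.496 TPM (difference -1.10, and -0.98 without parental replicate 3). GSTA1, a glutathione transferase with close paralogs, had 3.49, 3.02 and 3.40 TPM against 0.946, 1.26 and 1.2 TPM (difference -1.01). GSTA1 is at the minimum: it was at -0.94 without isoform 7 replicate 1, -0.98 without parental replicate 1, -0.99 without parental replicate 3 and -0.96 after scaling. Outside this list, CYP11A1, which makes the first cut in the side chain of cholesterol for steroid synthesis, went from 0.0852, 0.0495 and 0.124 TPM to 8.05, 4.98 and 5.90 TPM (difference 2.73, SE 0.10, limma adjusted p = 1.01e-18).

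In glucose metabolism 3 of 30 tested genes were called higher and 1 lower (median 0.01), beside 1.11% and 0.96% of all tested rows. HKDC1, a hexokinase-like enzyme, had 0.0927, 0.0815 and 0.0577 TPM in parental cells against 5.92, 6.58 and 5.10 TPM in the isoform 7 line (difference 2.67, SE 0.13, limma adjusted p = 2.57e-16). PC, pyruvate carboxylase, had 7.09, 7.03 and 7.64 TPM against 19.4, 18.9 and 20.4 TPM (difference 1.32). Among the enolases, the muscle form ENO3 had 10.3, 8.81 and 8.87 TPM against 25.5, 20.5 and 27.3 TPM, and the neuronal form ENO2 had 27.8, 25 and 29.4 TPM against 11.6, 12.0 and 12.1 TPM (differences 1.30 and -1.13). The ubiquitous form ENO1 differed by -0.02, with overlapping groups (1842, 1854 and 1787 TPM against 1814, 1877 and 1727 TPM). GAPDH differed by -0.08.

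Matrix and mesenchymal genes fell in part. Of 28 tested, 4 were called, all lower, beside 0.96% of all tested rows. After scaling ITGA3 was called higher beside them, at 1.05 against 0.98 unscaled. The median was 0.02. With no minimum difference 9 were higher and 11 lower at an adjusted p under 0.05, beside 13.4% and 26.2% of all tested rows. SPARC (chr5:151661096-151687165), a secreted matrix glycoprotein, had 15, 16.3 and 20.4 TPM in parental cells against 0.279, 0.188 and 0.243 TPM in the isoform 7 line (difference -3.87, SE 0.34, limma adjusted p = 1.18e-10). This fall was not particular to the isoform 7 line, since SPARC was called lower than in parental cells in all 11 other lines. VIM, the intermediate filament of mesenchymal cells, had 13.8, 14.6 and 13.9 TPM against 2.61, 2.66 and 2.71 TPM (difference -2.04). CAVIN2, a coat protein of caveolae, had 9.66, 8.70 and 10.8 TPM against 1.10, 0.827 and 0.924 TPM (difference -2.46). For each of these genes every isoform 7 library lay below every parental one. ANXA1, a phospholipid-binding protein, fell by 1.63, from a range of 232 to 237 TPM to one of 70.4 to 81.6 TPM. CAV1, the membrane protein of caveolae that binds CAVIN proteins, differed in the other direction, by 0.50 (SE 0.07).

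Growth factor genes split. Of 38 tested ligands, receptors and their partners, 4 were called higher and 6 lower, with a median of -0.18. Among all tested rows 1.11% were called higher and 0.96% lower. The EGF receptor ligands AREG and EREG rose: AREG had 26.1, 26.0 and 22.6 TPM in parental cells against 79.6, 83.9 and 64.9 TPM in the isoform 7 line (difference 1.57), and EREG had 6.76, 7.08 and 6.51 TPM against 24.7, 24.8 and 21.8 TPM (difference 1.67). NRG1, a ligand of ERBB receptors, was lower by the test but sat at the minimum, with a difference of -1.02. NRG1 was at -0.91 without isoform 7 replicate 3, at -0.89 without parental replicate 1 and at -0.95 after scaling. In the semaphorins, which guide cell and axon migration, SEMA3B rose by 2.59 and SEMA3C by 1.20, while SEMA3F differed by -1.02, by -0.98 without isoform 7 replicate 3 and by -0.96 after scaling.

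IGF2, a fetal growth factor, had 11.0, 10.3 and 9.73 TPM in parental cells against 1.87, 1.80 and 1.61 TPM in the isoform 7 line (difference -2.04, SE 0.09, limma adjusted p = 1.31e-17). IGFBP6, which binds IGF2, fell by 1.47. FGF19, an intestinal hormone that represses bile acid synthesis, had 9.47, 9.29 and 9.34 TPM against 3.37, 2.87 and 2.97 TPM (difference -1.35), and FGFBP1, an FGF carrier, fell by 1.25. The 2 most abundant members that were not called, IGFBP2 and DUSP5, differed by -0.48 and 0.23.

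Of the other 15 genes with the largest fall, SUCNR1, the succinate receptor, had 6.01, 6.25 and 6.44 TPM in parental cells against 0.193, 0.291 and 0.16 TPM in the isoform 7 line (difference -2.58). CD24, a small surface glycoprotein of epithelial cells, had a level in parental cells close to that of DHRS2, with 93.4, 95.5 and 82.9 TPM against 21.2, 21.2 and 19.7 TPM (difference -2.08, SE 0.09, limma adjusted p = 3.23e-17). PDGFC, a platelet-derived growth factor, and ITGB8, an integrin subunit, fell by 1.96 and 1.81. SMAD6, an inhibitor of BMP signalling, fell by 1.85, and PPP1R1B, a phosphatase inhibitor, by 2.28. The remaining ones, RANBP3L, SNCG and ANK1, differed by -2.16, -1.96 and -1.91. HBE1, embryonic globin, differed by -2.15, but its annotated span of chr11:5268345-5505652 overlaps other genes, so its reads are uncertain.

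For the 3 lists of this paragraph, the shares of all tested rows were 1.11% called higher and 0.96% lower. Among 36 tested transcription factors of gut and liver, 2 were called, both higher (median -0.02). CREB3L3, a liver and gut factor of fasting lipid metabolism, had 0.251, 0.182 and 0.198 TPM in parental cells against 3.78, 3.80 and 3.37 TPM in the isoform 7 line (difference 1.94, SE 0.16). KLF6 had 37.4, 39 and 39.5 TPM against 79.4, 80.1 and 85.4 TPM (difference 1.06). Of 14 tested genes of coagulation and plasma proteins, VTN and F2RL1, a protease-activated receptor, were called, both higher (F2RL1 1.21). Of 33 solute carriers SLC35D2, a transporter of nucleotide sugars, was higher (1.04) and SLC1A3, a glutamate transporter, lower (-1.09).

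Wnt target genes were mostly lower. Of 21 tested, 14 were lower and 1 higher at an adjusted p under 0.05, beside 26.2% and 13.4% of all tested rows. The median was -0.36, beside -0.06 for all tested rows. After scaling, 14 were lower and 3 higher, beside 2998 and 3237 of all 15002 rows. NOTUM, a secreted enzyme that inactivates Wnt proteins, had 16.2, 15.9 and 15.9 TPM in parental cells against 4.68, 4.23 and 4.10 TPM in the isoform 7 line (difference -1.67, SE 0.09, limma adjusted p = 7.64e-15). EPHB3, a receptor that positions cells in the crypt, fell by 1.13. DKK1, a secreted Wnt inhibitor, differed by -0.76 and BMP4 by -0.47.

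Interferon-response genes were more often lower, although the calls among interferon-response and inflammatory genes went in both directions. Of 28 tested interferon-response genes 3 were called higher and 2 lower (median -0.28), beside 1.11% and 0.96% of all tested rows. At an adjusted p under 0.05, 17 were lower and 4 higher, beside 26.2% and 13.4% of all tested rows. After scaling 14 were lower and 8 higher, beside 2998 and 3237 of all 15002 rows. Among members too low to be tested, IFIT2 had 0.505, 0.794 and 0.651 TPM in parental cells against 0.0794, 0.0597 and 0.063 TPM in the isoform 7 line. IFI44, OAS2 and BST2, also untested, were lower without overlap, while TRIM31 and TRIM40 were higher. OAS1, a sensor of double-stranded RNA, had 3.65, 4.24 and 4.13 TPM in parental cells against 13.6, 14.8 and 14 TPM in the isoform 7 line (difference 1.60). IFI6, an interferon-induced membrane protein, had 24.6, 28.6 and 29.3 TPM against 8.30, 8.49 and 7.51 TPM (difference -1.65), and IFITM1 fell by 1.38. The other genes of this list called higher were TRIM15 and TRIM10, which rose by 2.32 and 2.09. They are tripartite-motif genes that the annotation places next to each other on chromosome 6. Beside IL32, 1 of 15 tested NF-kB and inflammatory genes was called: TNFAIP2, at 22.5, 22.5 and 21.7 TPM against 7.83, 7.95 and 7.89 TPM (difference -1.39).

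Genes of cell division were lower by small amounts. None of 44 tested DNA replication genes was called, but 39 were lower and 0 higher at an adjusted p under 0.05, with a median of -0.30 beside -0.06 for all tested rows. After scaling 34 of the 44 were lower at that threshold and the median was -0.23. PCNA, the sliding clamp of DNA polymerase, had 570.0, 582 and 549 TPM in parental cells against 476, 491 and 415 TPM in the isoform 7 line (difference -0.30, SE 0.07). Of 40 mitosis genes 28 were lower and 0 higher (median -0.23), and after scaling 15 were lower and 1 higher. Among all tested rows, 26.2% were lower and 13.4% higher at that threshold. After scaling, 2998 of the 15002 rows were lower and 3237 higher. CDC20, an activator of the anaphase-promoting complex, differed by -0.12 with overlapping groups. In bulk RNA, fewer cells in a phase and less RNA per cell cannot be told apart.

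No member was called of 33 p53 targets (median -0.15), of 34 genes of ATF4, serine synthesis and the unfolded protein response (-0.17), of 18 clock genes (-0.06) or of 4 metallothioneins (-0.41). The metallothioneins varied between libraries: MT2A had 1262, 928 and 1091 TPM in parental cells against 957, 553 and 677 TPM in the isoform 7 line, which overlapped.

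**Figure D3:**
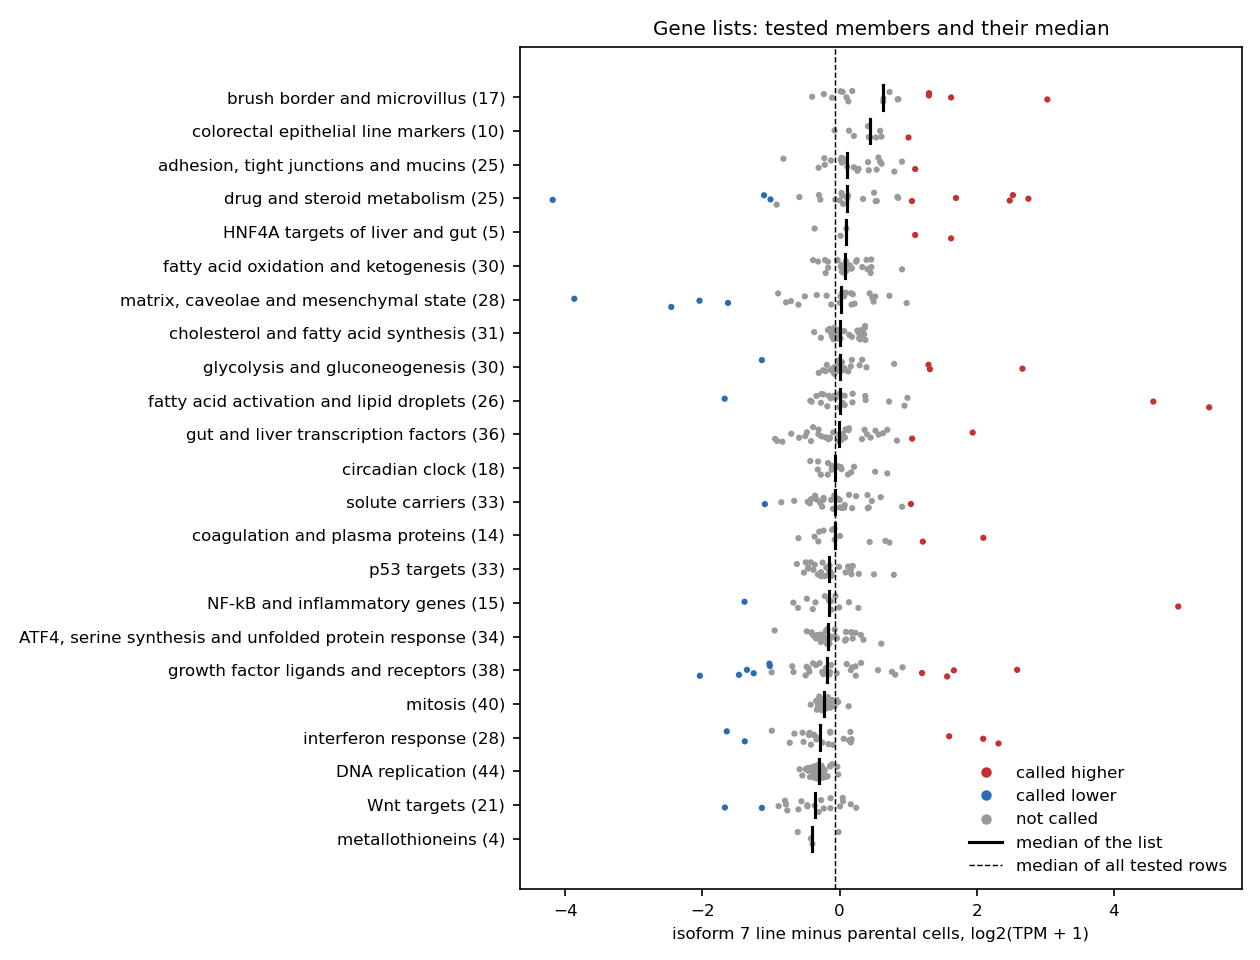
Difference between the isoform 7 line and the parental cells in log2(TPM + 1) (horizontal axis) of each tested member of 23 gene lists (number tested in brackets), with black bars at each list's median and a dashed line at the median of all tested rows, -0.06. Brush border genes have the highest median at 0.64; DNA replication genes lie in a narrow band around -0.30, and the lipid droplet list holds ACSL5 at 5.39 around a median of 0.00. Members are not independent of each other, and VIL1, LGALS4 and a few others stand in more than 1 list.

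Direct comparisons in the same fit set the isoform 7 line against the lines of isoforms 1, 8 and 9. By their labels, these lines also carried an HNF4A isoform joined to GFP. They received doxycycline at the same dose and for the same time as the isoform 7 line, and were kept in the same antibiotics. Each isoform is represented by 1 line, so isoform and line cannot be told apart. Against the isoform 1 line, which has the other N-terminus, 213 rows were called (1.42%), 38 higher and 175 lower in the isoform 7 line. Against the isoform 9 line 63 were called (0.42%), 51 higher and 12 lower, and against the isoform 8 line 34 (0.227%), 8 higher and 26 lower. The number of called rows was thus lowest against isoform 8 and highest against isoform 1.

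CYP11A1 was higher in the isoform 7 line than in the lines of isoforms 1 and 9. It had 8.05, 4.98 and 5.90 TPM in the isoform 7 libraries, against 0.187, 0.0465 and 0.112 TPM in the isoform 1 libraries and 0.0769, 0.13 and 0.0871 TPM in the isoform 9 libraries. The differences were 2.69 (SE 0.10, limma adjusted p = 5.50e-18) and 2.71 (SE 0.10, limma adjusted p = 1.33e-17). The isoform 8 libraries, with 5.27, 6.51 and 7.00 TPM, overlapped those of isoform 7 (difference 0.00, SE 0.10, limma adjusted p = 0.99). HPD was higher in the isoform 7 line than in both of these lines too, which had 4.22 to 5.51 and 3.06 to 4.32 TPM (differences 2.17 and 2.48). SEMA7A, a membrane-bound semaphorin, was higher than in the isoform 1 line by 1.38, and ANPEP was higher than in the isoform 9 line by 2.52.

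The genes much lower than in the isoform 1 line were CYP17A1, an enzyme of steroid synthesis, CIDEB, a lipid droplet protein of the liver, and SDCBP2. CYP17A1 had 1.53, 1.15 and 0.922 TPM in the isoform 7 libraries and 27.9, 17.1 and 26.6 TPM in the isoform 1 libraries (difference -3.48, SE 0.17, limma adjusted p = 1.37e-15). CIDEB had 3.70, 4.45 and 5.18 TPM against 60.4, 52.0 and 63.2 TPM (difference -3.45), and SDCBP2 had 2.76, 2.34 and 2.18 TPM against 39.7, 29.5 and 39.8 TPM (difference -3.44). CIDEC was called higher than in parental cells in the isoform 7 line, while CIDEB of the same family was not (difference 0.72).

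Against the isoform 8 line the deepest differences among protein-coding genes were in RPGRIP1, a ciliary protein gene, FGF13, an intracellular FGF-like protein, and VIM. RPGRIP1 had 0.401, 0.579 and 0.358 TPM in the isoform 7 libraries and 10.1, 11.3 and 10.4 TPM in the isoform 8 libraries (difference -3.01). FGF13 had 0.123, 0.0893 and 0.117 TPM against 7.99, 6.95 and 8.60 TPM (difference -2.99). The fall of VIM in the isoform 7 line was not shared by the isoform 8 line, whose libraries had 18.5, 18.3 and 18.7 TPM (difference -2.42, SE 0.22, limma adjusted p = 3.89e-09). CDKN2B, a cell cycle inhibitor, was higher than in the isoform 8 line by 1.19 and FAM25A by 1.01; FAM25A lost the call, at 0.98 to 1.00, without isoform 7 replicate 1 (0.99) or 2 (1.00) or isoform 8 replicate 2 (0.98) or 3 (1.00).

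Against the isoform 9 line, PLIN2 was lower, at 10.5, 9.85 and 7.68 TPM against 29.5, 30.8 and 29.4 TPM (difference -1.59, SE 0.06, limma adjusted p = 2.09e-17). FAM198B and MARCKS, an actin-regulating membrane protein, were lower by -1.39 and -1.33.

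**Figure D4:**
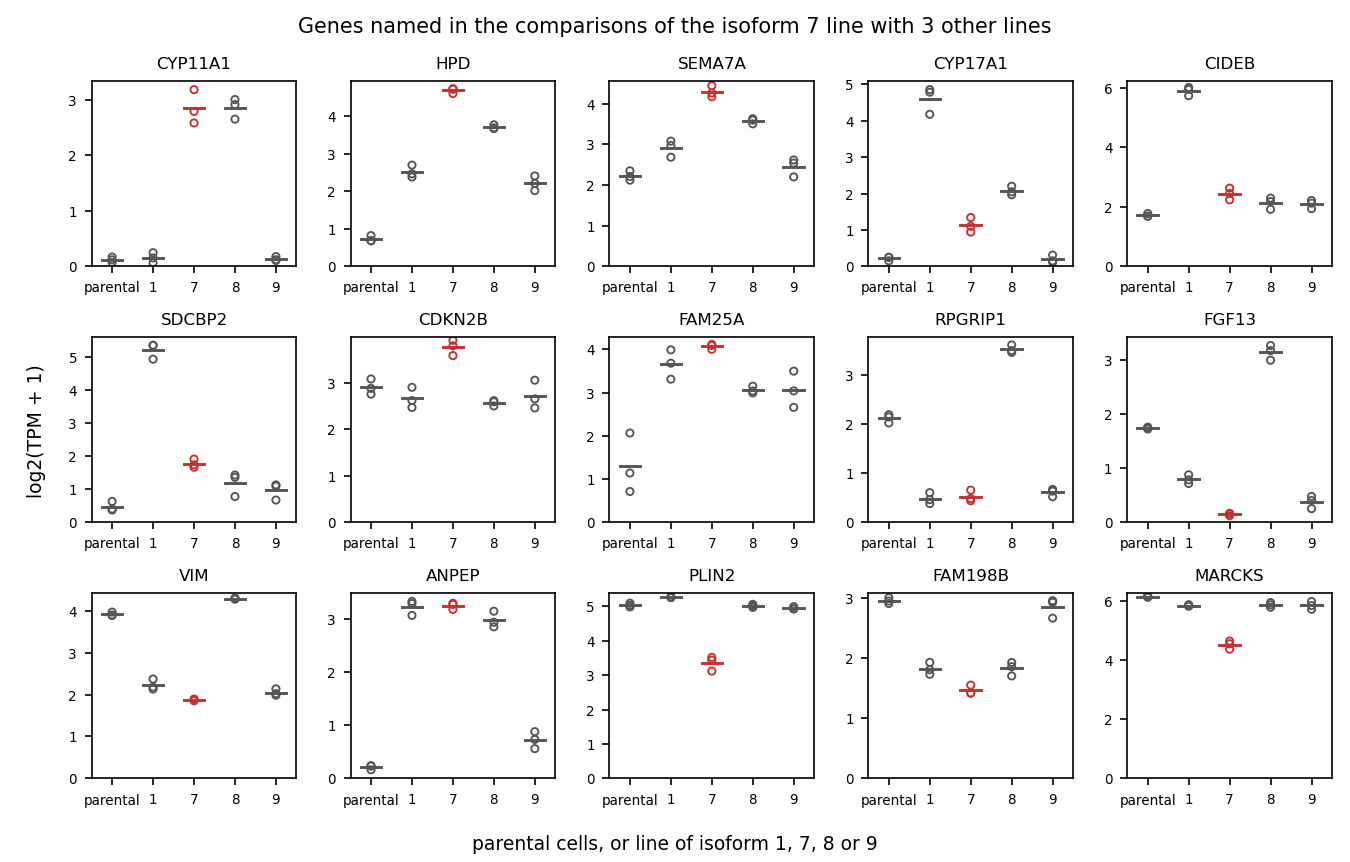
Levels in log2(TPM + 1) (vertical axes, each from 0) in the 3 libraries of the parental cells and of the lines of isoforms 1, 7 (red), 8 and 9, with bars at the mean, for the 15 protein-coding genes named in these comparisons, which are up to 3 called higher and 3 called lower against each line. PLIN2 and MARCKS lie lowest in the 3 isoform 7 libraries, and CYP11A1 is near 0 in the parental, isoform 1 and isoform 9 libraries.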

How the data were processed

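RNA-seq was measured in 39 libraries of 13 groups, and the 6 of the isoform 7 line and the parental cells are described here. Poly(A) RNA and a directional kit were used, per the labels' protocols. The authors deposited 1 table per group with 45446 rows in TPM. Those of the lines also hold the authors' log2 fold change with its standard error, their p-values and adjusted p-values, a test statistic (a score) and a mean normalised count (unit: signal), per the file headers. The submitters' processing notes name Trimmomatic 0.36, FastQC 0.11.5, kallisto 0.44.0, DESeq2 1.22.2 and the build GRCh38.p12, with no role. Which test setting gave the deposited values is not given in the sources used here.

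TPM columns summed to 999972.6 to 999987.7, so the read depth of a library is unknown and no counting interval was computed. The authors' mean normalised counts summed to 51503638 for this line. After the 12 HNF4A rows were left out, 45434 rows remained, 108 of them with a repeated name. TPM estimates can split reads between near-identical or overlapping transcripts, and an exact 0 can be a failed estimate. No column was left unmapped.

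The limma package (3.58.1, under R 4.3.3) was applied to log2(TPM + 1) by lmFit and by eBayes with a mean-variance trend. All 39 libraries entered 1 fit of 13 groups (26 residual degrees of freedom, median residual SD 0.0936), so that the groups share 1 estimate of the spread. Rows with a mean of at least 1 TPM were tested. The code was tested on simulated data. Alternatives were a pseudocount of 0.1 TPM, other filters, median-of-ratios scaling, a fit of the 6 libraries, no trend, a replicate block and leaving out each library.

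The gene lists were chosen from general knowledge. The comparison and lists were chosen with earlier results of these data known, so none is independent support. Named are HNF4A, the 15 higher and 15 lower protein-coding genes with the largest difference that were called with all libraries and without each of the 6 and did not overlap, called list members, up to 2 abundant uncalled members per list, and the 3 highest and lowest for each other line. Others named were chosen after their values were seen: APOBEC1's target APOB, TTR, FABP1, the markers, VIPR1-AS1 and those named as such. Biotypes came from RefSeq and gene positions from GENCODE, by name (30193 names matched GENCODE). Promoter sequences are RefSeq's, GRCh38.p14.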

Additional observations from a re-analysis of the deposited data

Results flagged for a closer look

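The direct tests of the isoform 7 line against other lines found rows whose change depends on the line: 213 against isoform 1, 34 against isoform 8 and 63 against isoform 9, by limma with an adjusted p under 0.05 and an absolute difference of at least 1. Each is listed because the difference between the lines was tested itself. The genes given here are the protein-coding ones with the largest differences; rows of noncoding RNAs and pseudogenes were not ranked. Against isoform 1 they were CYP11A1 (2.69), HPD (2.17) and SEMA7A (1.38) upwards and CYP17A1 (-3.48), CIDEB (-3.45) and SDCBP2 (-3.44) downwards. Against isoform 8 they were CDKN2B (1.19) and FAM25A (1.01) upwards and RPGRIP1 (-3.01), FGF13 (-2.99) and VIM (-2.42) downwards. Against isoform 9 they were CYP11A1 (2.71), ANPEP (2.52) and HPD (2.48) upwards and PLIN2 (-1.59), FAM198B (-1.39) and MARCKS (-1.33) downwards. Each group is 1 line, so the isoform and the line cannot be told apart. With 3 libraries a group, no search for single outlying libraries was made.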

How the results depend on the processing

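The number of called rows for the isoform 7 line against the parental cells, 311, stayed within 1.5 times under 12 of 15 alternatives: no filter (326), a filter over the 6 libraries (309), scaling (307), the 6 libraries alone (313), no trend (310), the replicate block (310) and leaving out each library (309 to 323). It moved to 566 with a pseudocount of 0.1 TPM (226 higher, 340 lower, so 39.9% higher against 53.7%), to 179 with a filter of 5 TPM, and to 5941 with no minimum difference. Against isoforms 1, 8 and 9 the counts of 213, 34 and 63 moved to 345, 106 and 133 with the pseudocount of 0.1 TPM and to 136, 20 and 35 with the filter of 5 TPM. Leaving out 1 library gave 203 to 227, 33 to 49 and 60 to 82. No named gene of the 70 compared with the parental cells reversed, and 5 lost the call under an alternative (NRG1, SEMA3F, GSTA1, KRT19 and CYP26A1). Of the genes named after their values were seen, GPR35, S100A1 and S100A5 lost it too. Same-numbered libraries of the 2 groups deviated together with correlations of 0.108, 0.022 and 0.046. For libraries with different numbers these ran from -0.089 to 0.037. With 3 libraries a group, such small values cannot settle whether the numbers pair the libraries. The replicate block gave 213, 35 and 64 called rows against isoforms 1, 8 and 9. Depth is unknown from TPM, so low genes such as VTN or LGALS4 carry a counting error that could not be given.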

Other observations

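The genes below were picked after their values were seen, so they are descriptions. On chromosome 1 the S100 genes, which encode small calcium-binding proteins, differed from each other over a short stretch. Besides S100A14 (4.12), the isoform 7 line was higher in S100A3 (2.11), S100A13 (1.71), S100A6 (1.43), S100A1 (1.06) and S100A5 (1.03). S100A1 lost the call without isoform 7 replicate 3 (0.99) or parental replicate 1 (0.97), and S100A5 without parental replicate 2 (0.91). S100A6 is abundant, with 1313, 1297 and 1348 TPM in parental cells against 3510, 3777 and 3365 TPM in the isoform 7 line. S100A2, S100A4 and S100A16, which lie among them, differed by 0.05, 0.31 and 0.37, and the neighbours CHTOP, SNAPIN and ILF2 by 0.00, 0.03 and -0.02. Some of these genes overlap, so their reads are uncertain.

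On chromosome 11, H19, the imprinted noncoding RNA next to IGF2, had 11.7, 10.8 and 10.9 TPM in parental cells against 1.51, 1.63 and 1.21 TPM in the isoform 7 line (difference -2.31, limma adjusted p = 9.72e-14), beside -2.04 for IGF2. SYT8, TNNI2 and LSP1, on the other side of MRPL23, were lower by -1.36, -1.61 and -1.65. MRPL23 itself differed by 0.12, and CTSD, CD81 and TSSC4 farther out differed by -0.15, -0.07 and 0.03.

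Genes that the aryl hydrocarbon receptor is known to induce did not move one way. CYP1A1 and CYP1A2 rose by 2.48 and 1.25, AHRR, the repressor of that receptor, had 14.5, 15 and 14.9 TPM in parental cells against 4.39, 4.70 and 4.56 TPM in the isoform 7 line (difference -1.51), and CYP1B1 and TIPARP differed by -0.92 and -0.63. Of genes of BMP signalling, SMAD6 (-1.85), ID2 (-1.43), MSX2 (-1.34), BMP7 (-1.25) and ID3 (-1.11) were called lower. ID1, with 197.1, 187.4 and 219.2 TPM against 220.5, 222.8 and 216.1 TPM, and MSX1 differed by 0.13 and 0.09. Of the immediate early genes, ZFP36, FOS and JUN were called higher (1.64, 1.15 and 1.15), while EGR1 (0.70), IER2 (0.16) and FOSL1 (-0.12) were not.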
